A study of Mus musculus with 28 samples.

Results

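The 43 genes described here encode proteins of DNA replication and S phase: the MCM helicase and the factors that load and activate it, the DNA polymerases and their clamp, the enzymes that supply nucleotides and join new strands, and regulators of entry into S phase. They are a list of named genes among the 24015 of the count table, and all 43 were among the 15238 genes that passed the filter on low counts. The libraries come from mouse embryos around the time when blood stem cells first arise from the wall of the dorsal aorta, a passage called the endothelial-to-hematopoietic transition. Each library was made from 100 sorted cells with a SMARTer low-input kit, and the 28 libraries fall into 9 populations. Populations labelled EC (endothelial cells) and HE (hemogenic endothelium, the endothelium from which blood arises) were taken on all 3 days, embryonic day (E) 8.5, E9.5 and E10.5. EC and HE are each called a lineage here for their shared label only. Blood was represented by a population labelled pro-HSC/HPC on the second of these days and by pre-HSC I and pre-HSC II on the last (HSC stands for hematopoietic stem cell, HPC for hematopoietic progenitor cell). Each population has 3 libraries, except E8.5 HE with 4. The source tissue is labelled PAS+VU on the first and second days and AGM+VU on the last, so that tissue and day change together between E9.5 and E10.5. Every population, EC included, carries the transgene labelled 23GFP, and how the cells were gated is not given in the sources used here. The libraries of a population are described as biological replicates, but nothing says whether separate embryos were used. The p-values therefore measure no more than the spread of these samples, and that spread may be technical.

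Before S phase the origin recognition complex, with Cdc6 and Cdt1, loads the ring-shaped MCM helicase onto DNA, a step called licensing. Cdc45 and the GINS complex then turn MCM into the active helicase, polymerase alpha with primase lays down primers, and polymerases delta and epsilon extend them on the sliding clamp Pcna, which the RFC complex loads. Many of these genes are transcribed from late G1 phase onward under E2F transcription factors, which bind short sites in their promoters. In a pool of cells, fewer cells in S phase and less mRNA per cell cannot be told apart.

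The promoters of 5 members are shown because an E2F-type site lay in them wholly upstream of the start of transcription, in genes whose mRNA levels took different courses below. Each line gives the 250 bases before the start, 5′ to 3′ on the gene's strand, from RefSeq on GRCm38.p6, with matches in capitals. The motifs searched on both strands were TTTCCCGC, TTTGGCGC, TTTCGCGC and TTTGCCGC. In Mcm5 and at a position in Mcm6, matches on opposite strands overlap. The windows lie at chr8:75109259-75109508 for Mcm5, chr1:128359706-128359955 for Mcm6, chr4:108579204-108579453 for Orc1, chr11:98907901-98908150 for Cdc6 and chrX:93632156-93632405 for Pola1.
Mcm5: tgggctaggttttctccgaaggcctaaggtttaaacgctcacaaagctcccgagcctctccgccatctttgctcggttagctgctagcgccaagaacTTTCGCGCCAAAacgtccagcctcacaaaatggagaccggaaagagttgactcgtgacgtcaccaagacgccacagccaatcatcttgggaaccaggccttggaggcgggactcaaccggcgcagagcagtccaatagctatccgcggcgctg
Mcm6: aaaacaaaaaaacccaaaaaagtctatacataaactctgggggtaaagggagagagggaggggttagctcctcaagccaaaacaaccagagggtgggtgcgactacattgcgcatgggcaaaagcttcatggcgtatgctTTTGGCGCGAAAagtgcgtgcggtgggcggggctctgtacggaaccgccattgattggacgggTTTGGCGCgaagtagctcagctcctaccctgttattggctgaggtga
Orc1: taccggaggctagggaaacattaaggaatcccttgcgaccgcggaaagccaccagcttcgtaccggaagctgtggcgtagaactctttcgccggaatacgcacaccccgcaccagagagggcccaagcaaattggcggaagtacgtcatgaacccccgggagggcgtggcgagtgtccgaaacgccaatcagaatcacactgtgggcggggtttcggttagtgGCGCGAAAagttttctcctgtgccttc
Cdc6: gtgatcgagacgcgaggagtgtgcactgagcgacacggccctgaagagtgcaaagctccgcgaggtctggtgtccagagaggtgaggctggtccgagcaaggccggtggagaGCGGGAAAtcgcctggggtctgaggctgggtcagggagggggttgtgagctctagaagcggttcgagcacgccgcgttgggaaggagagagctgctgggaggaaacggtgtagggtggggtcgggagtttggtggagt
Pola1: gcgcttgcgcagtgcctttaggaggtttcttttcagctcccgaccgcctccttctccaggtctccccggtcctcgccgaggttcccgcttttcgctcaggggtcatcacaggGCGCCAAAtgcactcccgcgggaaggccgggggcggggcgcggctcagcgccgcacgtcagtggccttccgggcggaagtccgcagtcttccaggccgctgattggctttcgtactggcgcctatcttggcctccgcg
Windows of 250 bases before to 50 bases after a start were at hand for 36 of the 43 members, and 12 of these (33.3%) held at least 1 of the 4 motifs, against 704 of 27025 genes (2.6%) with such a window. In 7 of the 12 a match lay wholly upstream of the start. No window was used for Mcm4, Gins1, Gins2, Prim2, Pole, Rfc2 and Ccne2. A match is a string of letters and not a measured binding site.

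Total counts ranged from 16308918 to 31405603 per library, and the lowest count of any member in any library was 63, so every member was detected in every library. Levels are given as CPM, the usual scale of counts relative to library size, on library sizes scaled by the TMM method. The TMM factors of the 3 E8.5 EC libraries were 0.789 to 0.811 and those of all other libraries 0.884 to 1.25, which raises the CPM of E8.5 EC above its plain share of counts. Leaving out the TMM factors moved the log2 difference of E9.5 EC against E8.5 EC by 0.29 and that of E10.5 HE against E8.5 HE by 0.24. Ptprc, the blood surface protein CD45, was at 11.4 ± 5.06 CPM (SD, n = 3) in pre-HSC I, at 100.0 ± 34.4 in pre-HSC II (n = 3), and at a mean of 0.939 CPM or less elsewhere, and Cdh5 of endothelial junctions was measured in every population. The summed level of 7 mesenchyme and smooth muscle markers was 34.6 to 76.4 CPM at E8.5, 216 to 812 in E10.5 HE, 20.2 to 259 in E10.5 EC and 33.4 to 36.6 in pre-HSC II. The summed level of 9 erythroid markers spanned 11.8 to 12132 CPM within pro-HSC/HPC and 23.6 to 1408 within pre-HSC I. The part that such cells or transcripts have in the values below was not tested. Exons of 6 members overlap those of a gene on the other strand, by 53.9% of the exon length for Ccne2 (with Ints8) and by 2.86% to 13.2% for Gins2, Lig1, Pold2, Rfc4 and Tk1, and it is not stated whether the counting used strand.

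As a group the replication genes had their highest mean share of counts in E8.5 EC and their lowest in E10.5 HE, and the 2 pre-HSC populations stood above HE of the same day. Together the 43 genes took 0.676% ± 0.036 (SD, n = 3) of all counts in E8.5 EC and 0.618% ± 0.073 (n = 4) in E8.5 HE. The share was 0.492% ± 0.068 in E9.5 EC, 0.442% ± 0.037 in E9.5 HE and 0.499% ± 0.031 in pro-HSC/HPC (n = 3 each). At E10.5 it was 0.578% ± 0.027 in EC, 0.381% ± 0.04 in HE, 0.603% ± 0.0014 for pre-HSC I and 0.644% ± 0.025 for pre-HSC II (n = 3 each). The 3 E10.5 HE libraries held 0.350% to 0.426%, below every library of the other E10.5 populations.

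**Figure D1:**
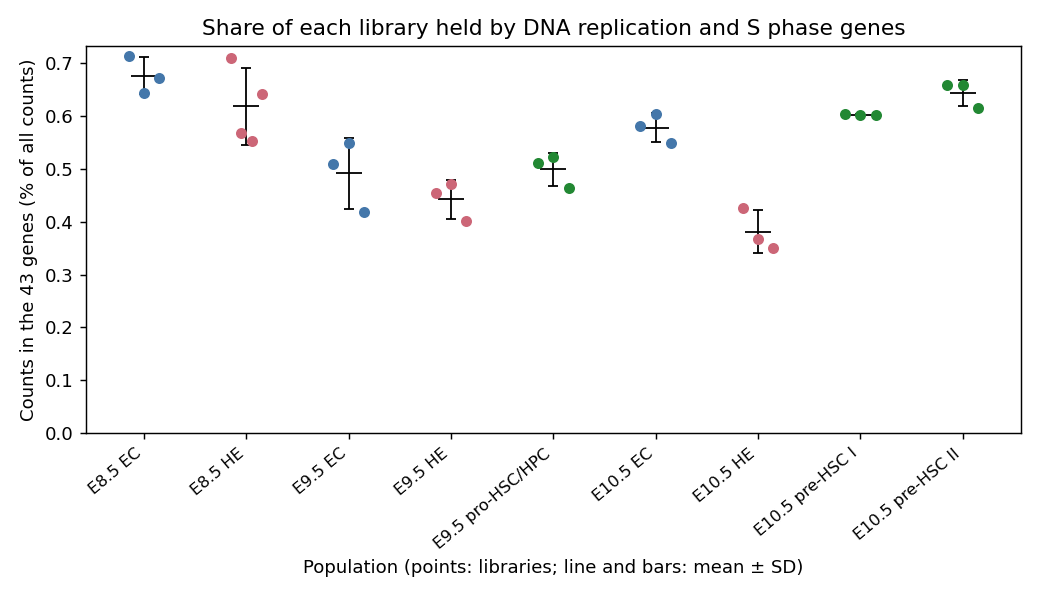
Share of all counts in the 43 DNA replication and S phase genes (%, vertical axis) in each of the 9 populations; points are libraries and the line and bars are the mean ± SD. E8.5 EC has the highest mean (0.676%) and E10.5 HE the lowest (0.381%), and the 3 E10.5 HE points lie below all other E10.5 points.

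By mean CPM, 29 of 43 members were highest in E8.5 EC, 9 were highest in pre-HSC II, and 35 of 43 were lowest in E10.5 HE. With each E10.5 HE library left out in turn the number lowest in E10.5 HE was 40 without replicate 1, 29 without replicate 2 and 33 without replicate 3. Without TMM factors 28 were lowest in E10.5 HE and 17 highest in E8.5 EC, so the place of E8.5 EC at the top rests in part on the scaling. The ratio of the highest to the lowest population mean was 1.31 for Rfc3, 2.38 for the median member and 7.35 for Pold2. Ordered by their means, neighbouring populations mostly did not separate: of the 8 neighbouring pairs, none had libraries apart for 22 members, and at most 3 did for any member. The 8 members that were not lowest in E10.5 HE had their lowest means elsewhere: Rpa3 and Pola1 were lowest in E8.5 EC, Pole2 was lowest in E10.5 EC, Slbp in pro-HSC/HPC, Rpa1 in E9.5 EC, and Pold2, Rfc2 and Rfc3 in E9.5 HE.

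**Figure D2:**
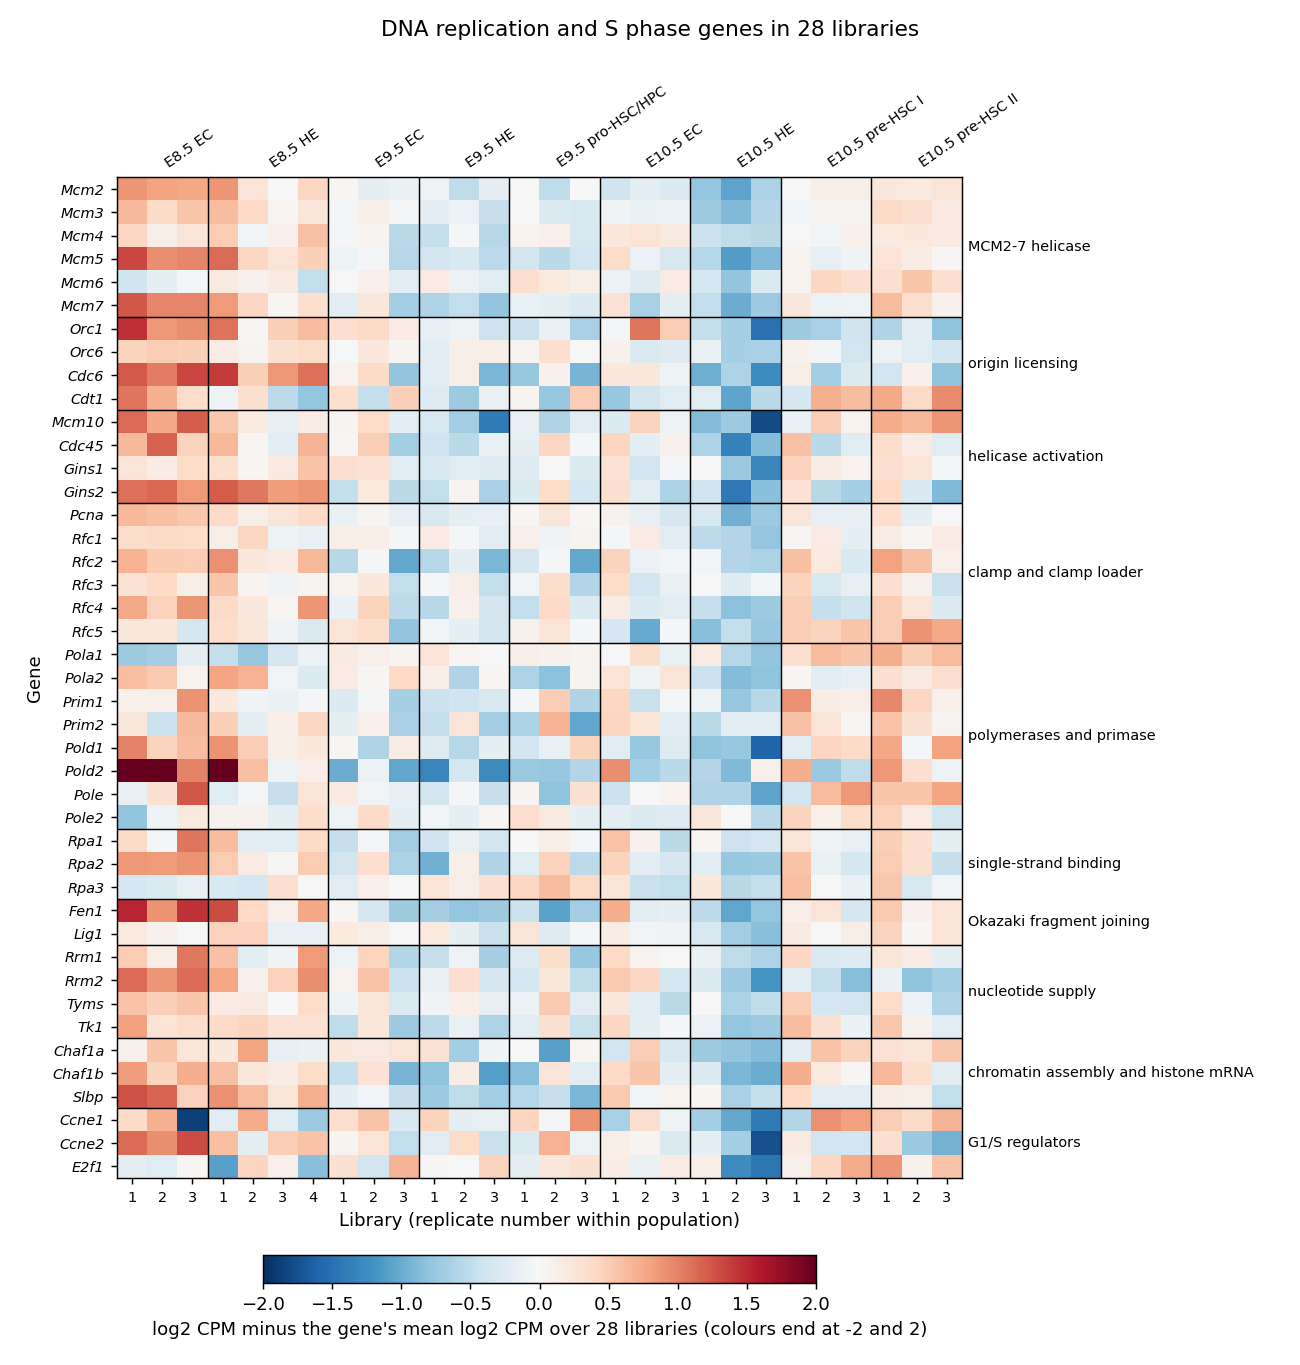
Levels of the 43 genes (rows, grouped by role) in the 28 libraries (columns, by population and replicate): log2 CPM minus the gene's mean log2 CPM over all libraries, red above and blue below, with colours ending at -2 and 2. The E8.5 EC columns are mostly red and the E10.5 HE columns mostly blue, with Pola1 and Rpa3 blue in E8.5 EC.

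Populations were set against each other in 14 main comparisons, 11 between populations and 3 of how a difference changed between days, and in 3 comparisons added after the levels were seen (pre-HSC I against E10.5 EC, pre-HSC II against E10.5 HE, and E10.5 against E8.5 HE). Of the 103 calls of single members in them, only 38 were kept with every library left out in turn. Counts of such runs are given below for some members only, so a call without one may also have been lost. The 6 MCM genes encode the ring of the replicative helicase, which is loaded at origins in G1 and unwinds DNA in S phase. Values are listed in order of replicate number. In EC, Mcm5 (mm9 chr8:77633427-77652338, plus strand) stood at 415, 314 and 323 CPM at E8.5, 153, 159.7 and 111 at E9.5 and 211, 152 and 132 at E10.5. In HE, Mcm5 stood at 359, 218, 198 and 227 CPM at E8.5, 128, 134 and 114 at E9.5 and 110.4, 75.3 and 89.3 at E10.5. Blood libraries held Mcm5 at 128, 113 and 125 CPM for pro-HSC/HPC, 172, 147 and 157 for pre-HSC I and 199, 182 and 167 for pre-HSC II. All E8.5 libraries lay above all E9.5 and E10.5 HE libraries, and E10.5 HE lay below both E10.5 EC and the 2 pre-HSC populations with no overlap. On the log2 scale Mcm5 fell from E8.5 to E9.5 in EC (-1.31 ± 0.23 (SE), edgeR adjusted p = 2.6e-04) and in HE (-0.9998 ± 0.21 (SE), edgeR adjusted p = 0.0063). At E10.5 it was lower in HE than in EC (-0.85 ± 0.22 (SE), edgeR adjusted p = 0.031) and higher in pre-HSC I than in HE (0.79 ± 0.22 (SE), edgeR adjusted p = 0.029).

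Mcm2 (mm9 chr6:88833468-88848774, minus strand) stood in EC at 213, 202 and 197 CPM at E8.5, 119, 102 and 105 at E9.5 and 87.4, 102 and 95.1 at E10.5. In HE, Mcm2 stood at 213, 139, 115 and 154 CPM at E8.5, 108, 81.01 and 100.4 at E9.5 and 67.4, 55.9 and 74.8 at E10.5. Mcm2 in the blood populations was at 115, 81.5 and 116 CPM for pro-HSC/HPC, 115, 125 and 125 for pre-HSC I and 133, 133 and 138 for pre-HSC II. In both lineages every E8.5 library lay above every E9.5 library, and the E10.5 HE libraries were the lowest of all 28. The log2 difference from E8.5 to E9.5 was -0.91 ± 0.20 (SE), edgeR adjusted p = 0.0025 in EC and -0.69 ± 0.19 (SE), edgeR adjusted p = 0.029 in HE. From E10.5 HE to pre-HSC I it was 0.88 ± 0.20 (SE), edgeR adjusted p = 0.0069, with no overlap of libraries. Mcm2 in E10.5 HE was also below EC in every library, but this difference did not pass the threshold (-0.52 ± 0.20 (SE), edgeR adjusted p = 0.18).

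Mcm3 (mm9 chr1:20793095-20810294, minus strand) in EC stood at 394, 328 and 369 CPM at E8.5, 248, 274 and 246 at E9.5 and 239.5, 231 and 232 at E10.5. In HE, Mcm3 stood at 386, 332, 259 and 297 CPM at E8.5, 221, 232 and 182 at E9.5 and 154, 137 and 167 at E10.5. Mcm3 in the blood populations was at 250.5, 209 and 203 CPM for pro-HSC/HPC, 243, 261 and 261 for pre-HSC I and 330.1, 316 and 285 for pre-HSC II. E10.5 HE was again below every other population, and pre-HSC II came back to the range of E8.5 HE. Mcm3 fell from E8.5 to E9.5 in EC (-0.51 ± 0.17 (SE), edgeR adjusted p = 0.035) and in HE (-0.59 ± 0.16 (SE), edgeR adjusted p = 0.025). It was lower in E10.5 HE than in E10.5 EC (-0.62 ± 0.17 (SE), edgeR adjusted p = 0.039) and higher in pre-HSC I than in HE (0.74 ± 0.17 (SE), edgeR adjusted p = 0.0069), and the last call was kept with each library of that comparison left out in turn. The fall from E8.5 to E9.5 was kept in 0 of 6 such runs in EC and in 3 of 7 in HE. The call of E10.5 HE against EC was kept in 0 of 6.

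Mcm4 (mm9 chr16:15623990-15637493, minus strand) in EC stood at 315, 258 and 283 CPM at E8.5, 229, 247 and 163 at E9.5 and 273, 287 and 268 at E10.5. In HE, Mcm4 stood at 336, 227, 254 and 355 CPM at E8.5, 169.9, 231 and 159.8 at E9.5 and 175, 167 and 161 at E10.5. Mcm4 in the blood populations was at 249, 254 and 189.6 CPM for pro-HSC/HPC, 238, 229 and 253 for pre-HSC I and 272, 272 and 269 for pre-HSC II. At E10.5 the EC libraries lay above every HE library and close to pre-HSC II. Mcm4 fell from E8.5 to E9.5 in HE (-0.65 ± 0.19 (SE), edgeR adjusted p = 0.036), although its libraries overlapped there. In E10.5 HE it was lower than in EC (-0.72 ± 0.20 (SE), edgeR adjusted p = 0.04). With 1 library left out this call was kept in 0 of 6 runs, and that of the fall in HE in 3 of 7.

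Mcm7 (mm9 chr5:138605817-138613090, minus strand) in EC stood at 501, 417 and 417 CPM at E8.5, 183, 247 and 132 at E9.5 and 257, 135 and 187 at E10.5. In HE, Mcm7 stood at 382, 283, 216 and 265 CPM at E8.5, 138, 151 and 123 at E9.5 and 150.1, 106 and 128 at E10.5. Mcm7 in the blood populations was at 190.3, 185 and 174 CPM for pro-HSC/HPC, 248, 194 and 198 for pre-HSC I and 328, 265 and 223 for pre-HSC II. Its spread at E10.5 was wide, with replicate 1 the highest library in all 4 populations of that day. Mcm7 fell from E8.5 to E9.5 in EC (-1.25 ± 0.25 (SE), edgeR adjusted p = 9.5e-04) and in HE (-1.06 ± 0.23 (SE), edgeR adjusted p = 0.008), and the libraries did not overlap in either.

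Mcm6 (mm9 chr1:130228168-130256233, minus strand) passed the threshold in neither lineage between E8.5 and E9.5. In EC, Mcm6 stood at 133, 154 and 171 CPM at E8.5, 176, 189 and 151 at E9.5 and 163, 148 and 197 at E10.5. In HE, Mcm6 stood at 200.4, 187, 201 and 126 CPM at E8.5, 199, 162 and 149.7 at E9.5 and 138, 102 and 145 at E10.5. Mcm6 in the blood populations was at 220.3, 203 and 191 CPM for pro-HSC/HPC, 186, 235 and 220.2 for pre-HSC I and 223, 259.6 and 221 for pre-HSC II. E8.5 EC was not high for this subunit, and pre-HSC II was the highest population. Between E8.5 and E9.5 the log2 difference of Mcm6 was 0.17 ± 0.20 (SE), edgeR adjusted p = 0.58 in EC and -0.07 ± 0.19 (SE), edgeR adjusted p = 0.88 in HE, with 95% intervals of -0.24 to 0.58 and -0.45 to 0.31. The interval in EC leaves out a fall of the size seen for Mcm5, but the difference between the subunits was not itself tested. Mcm6 rose from E10.5 HE to pre-HSC I (0.74 ± 0.20 (SE), edgeR adjusted p = 0.023), and all E10.5 HE libraries lay below all libraries of both pre-HSC populations. Compared per kilobase of exon, Mcm2 was the least abundant of the 6 mRNAs in 8 of 9 populations and Mcm6 in E8.5 EC, and Mcm7 was the most abundant in 5 and Mcm3 in 4. The most abundant exceeded the least by 2.47 to 3.53 times per length in every population.

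**Figure D3:**
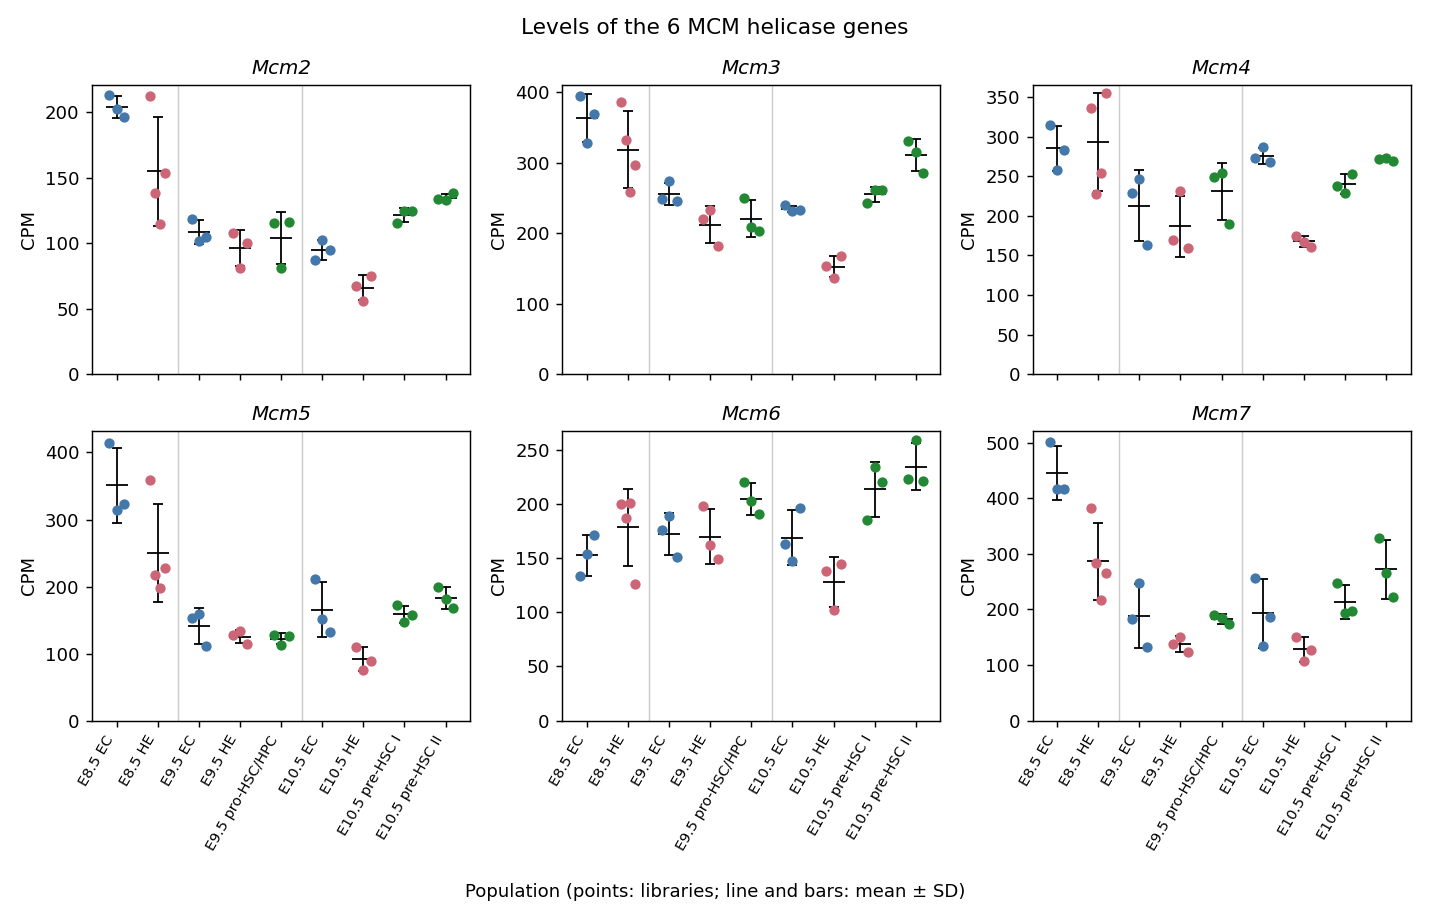
CPM of the 6 MCM helicase genes (vertical axes from 0) in the 9 populations; points are libraries (blue EC, red HE, green blood populations), line and bars the mean ± SD. Mcm2, Mcm3, Mcm5 and Mcm7 step down after E8.5, E10.5 HE has the lowest mean of all 6 genes, and Mcm6 has no step after E8.5.

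Of the licensing genes, Cdc6 is the loader that brings MCM to origins (mm9 chr11:98769203-98785256, plus strand). In EC, Cdc6 stood at 192, 166 and 207 CPM at E8.5, 85.8, 107 and 47.5 at E9.5 and 94.5, 95.9 and 76.1 at E10.5. In HE, Cdc6 stood at 215, 114, 149.9 and 176 CPM at E8.5, 69.8, 88.6 and 43.7 at E9.5 and 41.6, 53.2 and 34.4 at E10.5. Cdc6 in the blood populations was at 48.6, 86.7 and 43.2 CPM for pro-HSC/HPC, 89.3, 50.99 and 67.1 for pre-HSC I and 63.1, 87.6 and 47.2 for pre-HSC II. No blood library reached the E8.5 range, and pre-HSC I and E10.5 HE overlapped. Cdc6 fell from E8.5 to E9.5 in EC (-1.23 ± 0.33 (SE), edgeR adjusted p = 0.0087) and in HE (-1.28 ± 0.31 (SE), edgeR adjusted p = 0.014), and the E10.5 HE libraries lay below all E10.5 EC libraries without passing the threshold (-1.04 ± 0.33 (SE), edgeR adjusted p = 0.08).

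Orc1, the subunit of the origin recognition complex that cycles with the cell cycle (mm9 chr4:108252059-108287436, plus strand), showed the largest difference of any member between E10.5 HE and EC. In EC, Orc1 stood at 60.3, 40.3 and 42.1 CPM at E8.5, 27.7, 28.7 and 24.5 at E9.5 and 21.6, 46.1 and 31.4 at E10.5. In HE, Orc1 stood at 46.7, 22.5, 30.7 and 33.7 CPM at E8.5, 19.7, 20.5 and 16.5 at E9.5 and 15.9, 13.96 and 7.85 at E10.5. Orc1 in the blood populations was at 16.3, 20.05 and 13.97 CPM for pro-HSC/HPC, 13.4, 14.05 and 16.6 for pre-HSC I and 14.5, 18.95 and 12.5 for pre-HSC II. All libraries of both pre-HSC populations lay below every E10.5 EC library. The log2 difference of E10.5 HE against EC was -1.39 ± 0.31 (SE), edgeR adjusted p = 0.0097, and that of pre-HSC I against EC, a comparison added after the levels were seen, was -1.17 ± 0.31 (SE), edgeR adjusted p = 0.018. Against HE, Orc1 in pre-HSC I differed by 0.23 ± 0.31 (SE), edgeR adjusted p = 0.76, with a 95% interval of -0.41 to 0.86. Orc6, another subunit, passed the threshold in none of the 14 main comparisons, and was lower in HE of E10.5 than of E8.5 (-0.68 ± 0.17 (SE), edgeR adjusted p = 0.0078).

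Cdt1, the partner of Cdc6 in loading MCM (mm9 chr8:125091915-125097030, plus strand), was low and uneven. In EC, Cdt1 stood at 71.5, 55.8 and 44.003 CPM at E8.5, 42.8, 24.3 and 47.5 at E9.5 and 20.1, 26.4 and 28.6 at E10.5. In HE, Cdt1 stood at 32.5, 42.4, 23.7 and 19.9 CPM at E8.5, 28.5, 20.6 and 30.6 at E9.5 and 28.7, 16.4 and 23.5 at E10.5. Cdt1 in the blood populations was at 35.2, 20.1 and 47.6 CPM for pro-HSC/HPC, 26.8, 55.8 and 51.9 for pre-HSC I and 57.6, 44.5 and 65.8 for pre-HSC II. All E8.5 EC libraries lay above all E8.5 HE libraries, but the difference did not pass the threshold (-0.95 ± 0.32 (SE), edgeR adjusted p = 0.073). In an added comparison Cdt1 was higher in pre-HSC II than in E10.5 HE (1.29 ± 0.35 (SE), edgeR adjusted p = 0.0082).

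Helicase activation needs Mcm10, the GINS complex and Cdc45. Mcm10 (mm9 chr2:4911770-4933837, minus strand) in EC stood at 97.4, 75.9 and 103 CPM at E8.5, 46.1, 57.4 and 38.6 at E9.5 and 36.97, 60.4 and 41.5 at E10.5. In HE, Mcm10 stood at 64.6, 50.8, 39.7 and 49.4 CPM at E8.5, 35.5, 27.5 and 16.7 at E9.5 and 24.5, 26.98 and 12.9 at E10.5. Mcm10 in the blood populations was at 39.997, 29.3 and 38.3 CPM for pro-HSC/HPC, 40.4, 62.7 and 46.97 for pre-HSC I and 74.5, 70.6 and 81.7 for pre-HSC II. HE was below EC in every library on all 3 days, and pre-HSC II lay above pre-HSC I with no overlap. Mcm10 fell from E8.5 to E9.5 in EC (-0.96 ± 0.29 (SE), edgeR adjusted p = 0.02) and in HE (-0.94 ± 0.28 (SE), edgeR adjusted p = 0.038). It was lower in HE than in EC at E10.5 (-1.11 ± 0.29 (SE), edgeR adjusted p = 0.03), and the HE against EC difference was -0.85 ± 0.27 (SE), edgeR adjusted p = 0.053 at E8.5 and -0.83 ± 0.29 (SE), edgeR adjusted p = 0.43 at E9.5. It was higher in pre-HSC I than in E10.5 HE (1.22 ± 0.29 (SE), edgeR adjusted p = 0.0094).

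The GINS subunit Gins2 (mm9 chr8:123105166-123112975, minus strand) in EC stood at 226, 233 and 189.8 CPM at E8.5, 75.3, 121 and 72.4 at E9.5 and 132, 89.8 and 67.99 at E10.5. In HE, Gins2 stood at 244, 219, 188 and 194 CPM at E8.5, 74.4, 109 and 67.1 at E9.5 and 79.4, 38.9 and 58.6 at E10.5. Gins2 in the blood populations was at 86.7, 135 and 82.2 CPM for pro-HSC/HPC, 128, 71.4 and 65.2 for pre-HSC I and 139, 84.7 and 56.6 for pre-HSC II. Every E8.5 library lay above every later library. Gins2 fell from E8.5 to E9.5 in EC (-1.27 ± 0.33 (SE), edgeR adjusted p = 0.0083) and in HE (-1.34 ± 0.32 (SE), edgeR adjusted p = 0.013). Gins1 and Cdc45 passed the threshold in none of the 14 main comparisons, but both did in 2 of the added ones. Gins1 was higher in pre-HSC II than in HE (0.79 ± 0.26 (SE), edgeR adjusted p = 0.027) and lower in HE of E10.5 than of E8.5 (-0.88 ± 0.24 (SE), edgeR adjusted p = 0.014). For Cdc45 these differences were 1.03 ± 0.32 (SE), edgeR adjusted p = 0.022, and -1.26 ± 0.31 (SE), edgeR adjusted p = 0.0061.

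Pcna, the sliding clamp that holds the polymerases on DNA (mm9 chr2:132075022-132078916, minus strand), was highest in E8.5 EC. In EC, Pcna stood at 664, 643 and 616 CPM at E8.5, 382, 441 and 376 at E9.5 and 451, 377 and 337 at E10.5. In HE, Pcna stood at 552, 459.8, 503 and 549.9 CPM at E8.5, 339.9, 375 and 379.7 at E9.5 and 340.2, 217 and 257 at E10.5. Pcna in the blood populations was at 436, 501 and 432 CPM for pro-HSC/HPC, 504, 379 and 377 for pre-HSC I and 536, 372 and 420.2 for pre-HSC II. The 3 E8.5 EC libraries were the highest of all 28, and replicates 2 and 3 of E10.5 HE the lowest. Pcna fell from E8.5 to E9.5 in EC (-0.68 ± 0.19 (SE), edgeR adjusted p = 0.012) and rose from E10.5 HE to pre-HSC I (0.63 ± 0.19 (SE), edgeR adjusted p = 0.041). The second call was kept in 1 of 6 runs with 1 library left out. In HE the fall from E8.5 to E9.5 did not pass the threshold (-0.50 ± 0.18 (SE), edgeR adjusted p = 0.085), although its libraries did not overlap.

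Of RFC, which loads the clamp, all 5 subunits were measured. Rfc2 (mm9 chr5:135058560-135074198, plus strand) in EC stood at 218, 192 and 191 CPM at E8.5, 91.8, 130.1 and 65.7 at E9.5 and 183, 123 and 129 at E10.5. In HE, Rfc2 stood at 252, 158, 150.2 and 212 CPM at E8.5, 89.96, 117 and 71.2 at E9.5 and 129.8, 89.2 and 86.4 at E10.5. Rfc2 in the blood populations was at 106, 132 and 66.3 CPM for pro-HSC/HPC, 204, 154 and 109 for pre-HSC I and 235, 201 and 144 for pre-HSC II. Every E9.5 library lay below every E8.5 library. Rfc2 fell from E8.5 to E9.5 in EC (-1.06 ± 0.30 (SE), edgeR adjusted p = 0.013) and in HE (-1.06 ± 0.28 (SE), edgeR adjusted p = 0.025). Rfc5 (mm9 chr5:117829154-117839032, minus strand) had its highest means in the pre-HSC populations. In EC, Rfc5 stood at 36.1, 35.95 and 24.4 CPM at E8.5, 37.5, 39.5 and 17.9 at E9.5 and 24.5, 15.5 and 30.7 at E10.5. In HE, Rfc5 stood at 39.5, 36.3, 29.7 and 25.4 CPM at E8.5, 29.8, 27.3 and 23.8 at E9.5 and 17.4, 22.3 and 18.4 at E10.5. Rfc5 in the blood populations was at 32.8, 37.4 and 30.1 CPM for pro-HSC/HPC, 43.8, 42.3 and 45.5 for pre-HSC I and 43.6, 58.1 and 52.8 for pre-HSC II. It was higher in pre-HSC I than in E10.5 HE (1.18 ± 0.28 (SE), edgeR adjusted p = 0.0095), and this call was kept with each library of that comparison left out in turn. In a comparison added after the levels were seen, it was also higher in pre-HSC I than in E10.5 EC (0.90 ± 0.28 (SE), edgeR adjusted p = 0.049). That call was kept in 1 of 6 such runs. Rfc1, the large subunit, also rose from E10.5 HE to pre-HSC I (0.63 ± 0.18 (SE), edgeR adjusted p = 0.025). Rfc3 and Rfc4 passed the threshold in none of the 14 main comparisons. In the added ones Rfc4 was higher in pre-HSC II than in HE (0.85 ± 0.30 (SE), edgeR adjusted p = 0.043) and lower in HE of E10.5 than of E8.5 (-1.07 ± 0.29 (SE), edgeR adjusted p = 0.011).

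Among the polymerases, Pola1, the catalytic subunit of polymerase alpha (mm9 chrX:90550105-90877494, minus strand), was the only member that was called higher at E9.5 than at E8.5, and this in EC. In EC, Pola1 stood at 47.2, 48.6 and 67.3 CPM at E8.5, 87.8, 82.7 and 80.7 at E9.5 and 78.1, 98.5 and 69.6 at E10.5. In HE, Pola1 stood at 55.7, 45.9, 61.5 and 71.5 CPM at E8.5, 92.9, 79.7 and 76.6 at E9.5 and 86.9, 52.3 and 44.8 at E10.5. Pola1 in the blood populations was at 84.2, 81.9 and 80.2 CPM for pro-HSC/HPC, 97.3, 119.9 and 113 for pre-HSC I and 128, 108 and 119.9 for pre-HSC II. The 3 E8.5 EC libraries lay below all E9.5 libraries and all pre-HSC libraries. Pola1 rose from E8.5 to E9.5 in EC (0.62 ± 0.22 (SE), edgeR adjusted p = 0.049), and the difference in HE was 0.50 ± 0.21 (SE), edgeR adjusted p = 0.14. The EC call was kept in 1 of 6 runs with 1 library left out. Pola1 rose again from E10.5 HE to pre-HSC I (0.84 ± 0.22 (SE), edgeR adjusted p = 0.019), a call kept in 2 of 6 such runs. The accessory subunit Pola2 and the primase genes Prim1 and Prim2 passed the threshold in none of the 14 main comparisons. In the added ones Pola2 and Prim1 were higher in pre-HSC II than in HE (0.97 ± 0.29 (SE), edgeR adjusted p = 0.015 for Pola2). For Prim1 the difference was 0.98 ± 0.30 (SE), edgeR adjusted p = 0.019, and Pola2 was also lower in HE of E10.5 than of E8.5 (-1.05 ± 0.27 (SE), edgeR adjusted p = 0.009).

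Pold2, the accessory subunit of polymerase delta (mm9 chr11:5772183-5778259, minus strand), had the widest range. In EC, Pold2 stood at 249, 188 and 88.4 CPM at E8.5, 22.5, 40.96 and 21.6 at E9.5 and 84.7, 27.9 and 30.8 at E10.5. In HE, Pold2 stood at 189, 67.9, 41.7 and 49.1 CPM at E8.5, 18.05, 34.8 and 18.5 at E9.5 and 29.7, 24.1 and 47.7 at E10.5. Pold2 in the blood populations was at 26.6, 26.3 and 29.6 CPM for pro-HSC/HPC, 73.8, 26.7 and 31.5 for pre-HSC I and 81.7, 56.5 and 41.8 for pre-HSC II. Replicate 1 was far above the rest in E8.5 HE and in E10.5 EC, and in pre-HSC I and pre-HSC II it was the highest as well. Pold2 fell from E8.5 to E9.5 in EC (-2.63 ± 0.54 (SE), edgeR adjusted p = 0.0014) and in HE (-1.87 ± 0.51 (SE), edgeR adjusted p = 0.027). Without E8.5 HE replicate 1 the HE difference was -1.14 and was no longer called. The catalytic subunits of polymerases delta and epsilon, Pold1 and Pole, rose from E10.5 HE to pre-HSC I (1.23 ± 0.31 (SE), edgeR adjusted p = 0.013 for Pold1). For Pole the difference was 1.2002 ± 0.33 (SE), edgeR adjusted p = 0.025.

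Fen1, the nuclease that trims the ends of Okazaki fragments (mm9 chr19:10273622-10278433, minus strand), was among the members that fell most after E8.5. In EC, Fen1 stood at 286, 185 and 271 CPM at E8.5, 102, 78.6 and 60.99 at E9.5 and 164, 85.3 and 87.1 at E10.5. In HE, Fen1 stood at 245, 131, 107 and 171 CPM at E8.5, 63.1, 58.2 and 60.9 at E9.5 and 69.1, 48.7 and 58.3 at E10.5. Fen1 in the blood populations was at 74.3, 47.4 and 61.3 CPM for pro-HSC/HPC, 109.5, 119.5 and 78.6 for pre-HSC I and 143, 106 and 120.1 for pre-HSC II. No E9.5 library reached the lowest E8.5 library. Fen1 fell from E8.5 to E9.5 in EC (-1.62 ± 0.30 (SE), edgeR adjusted p = 4.8e-04) and in HE (-1.43 ± 0.28 (SE), edgeR adjusted p = 0.0038). Lig1, the ligase that seals these fragments, was at 153 ± 10.7 CPM in E8.5 EC and 154 ± 10.7 in E9.5 EC (SD, n = 3 each), and it rose from E10.5 HE to pre-HSC I (0.72 ± 0.21 (SE), edgeR adjusted p = 0.039). Rpa1 and Rpa2, which coat single-stranded DNA, fell from E8.5 to E9.5 in EC (-0.91 ± 0.29 (SE), edgeR adjusted p = 0.029 for Rpa1), and for Rpa2 the difference was -1.03 ± 0.33 (SE), edgeR adjusted p = 0.027. The third subunit, Rpa3, differed there by 0.24 ± 0.26 (SE), edgeR adjusted p = 0.55.

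Rrm2, the small subunit of ribonucleotide reductase and the one whose amount follows the cell cycle (mm9 chr12:25393119-25399011, plus strand), was highest in E8.5 EC. In EC, Rrm2 stood at 1139.8, 954 and 1127 CPM at E8.5, 545, 774 and 387 at E9.5 and 743, 689.9 and 408 at E10.5. In HE, Rrm2 stood at 886, 554, 717 and 990.0 CPM at E8.5, 468, 653 and 405 at E9.5 and 429, 313 and 229 at E10.5. Rrm2 in the blood populations was at 406, 600.2 and 364 CPM for pro-HSC/HPC, 450.0, 374 and 288 for pre-HSC I and 474, 298 and 325 for pre-HSC II. The 2 pre-HSC populations stayed within or near the range of E10.5 HE. Rrm2 fell from E8.5 to E9.5 in EC (-0.92 ± 0.30 (SE), edgeR adjusted p = 0.031), while pre-HSC I differed from HE by 0.19 ± 0.30 (SE), edgeR adjusted p = 0.79, with a 95% interval of -0.42 to 0.80. Per kilobase of exon, the ratio of Rrm2 to the large subunit Rrm1 was 5.41 ± 1.26 (SD, n = 3) in E8.5 EC, 3.09 ± 0.456 in HE of E10.5 and 2.53 ± 0.523 for pre-HSC II. Tk1, the thymidine kinase of the salvage route, fell from E8.5 to E9.5 in EC (-0.78 ± 0.28 (SE), edgeR adjusted p = 0.048), a call kept in 1 of 6 runs with 1 library left out. Tyms, which makes thymidylate and has a near copy in the table as Tyms-ps, passed the threshold in none of the 14 main comparisons.

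**Figure D4:**
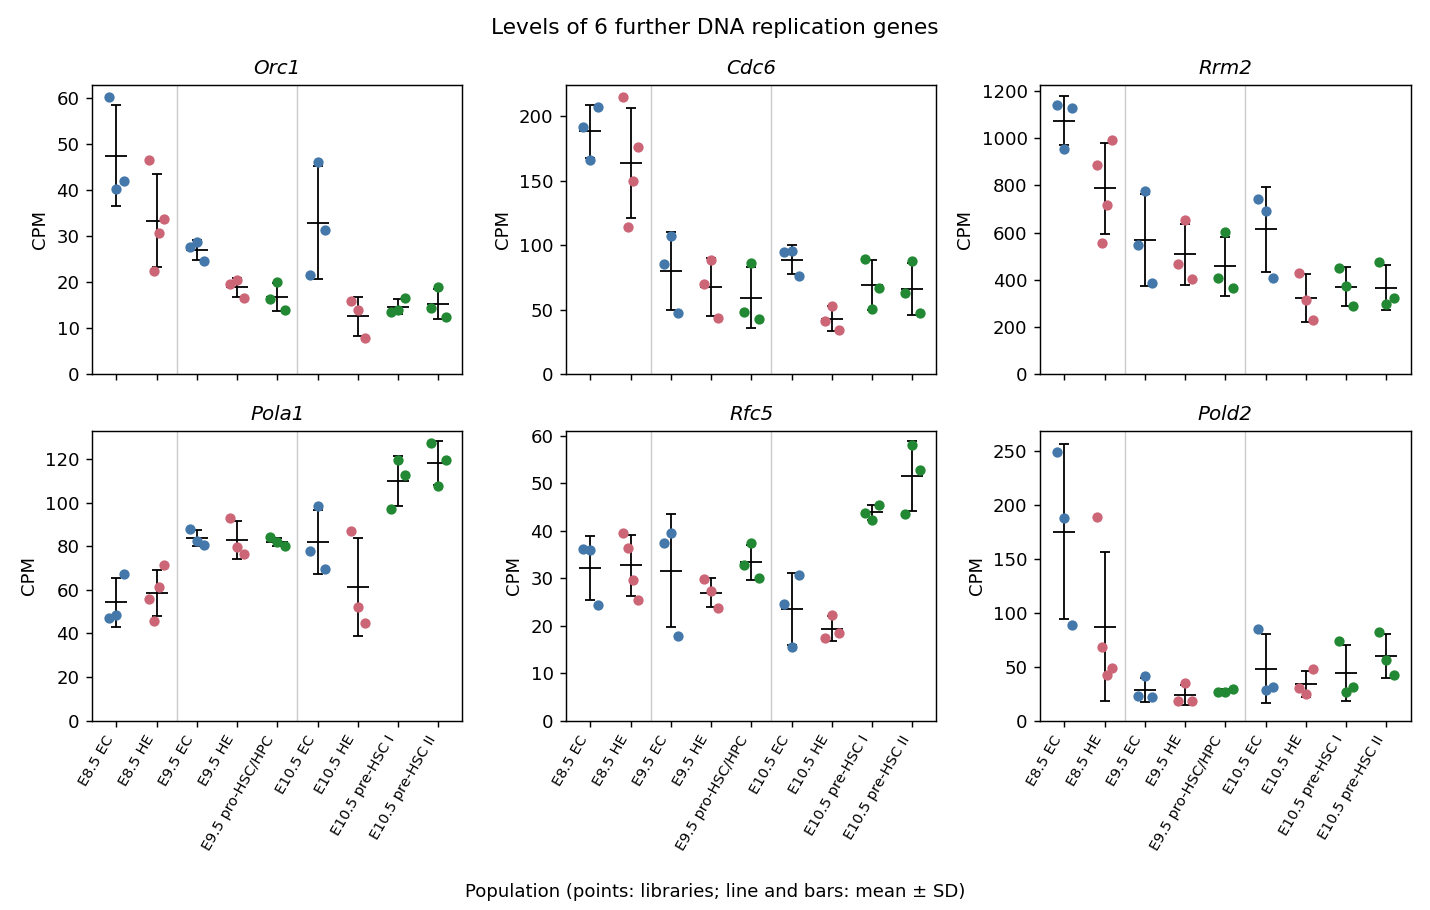
CPM of Orc1, Cdc6, Rrm2, Pola1, Rfc5 and Pold2 (vertical axes from 0) in the 9 populations; points are libraries (blue EC, red HE, green blood populations), line and bars the mean ± SD. Orc1 and Rrm2 stay low in the pre-HSC populations, Rfc5 is high there, and Pola1 is lowest in E8.5 EC.

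Slbp binds the stem-loop of histone mRNAs, which are made in S phase (mm9 chr5:33982704-33995223, minus strand). In EC, Slbp stood at 554, 515 and 316 CPM at E8.5, 201, 222 and 168 at E9.5 and 332, 222 and 243 at E10.5. In HE, Slbp stood at 432, 356, 273 and 376 CPM at E8.5, 139, 162 and 144 at E9.5 and 236, 147 and 165 at E10.5. Slbp in the blood populations was at 154, 167 and 122 CPM for pro-HSC/HPC, 303, 199 and 198 for pre-HSC I and 254, 251 and 165 for pre-HSC II. Every E9.5 library lay below every E8.5 library. Slbp fell from E8.5 to E9.5 in EC (-1.23 ± 0.25 (SE), edgeR adjusted p = 0.0013) and in HE (-1.28 ± 0.24 (SE), edgeR adjusted p = 0.0028), and both calls were kept with each library left out in turn. Of the subunits of the chromatin assembly factor, Chaf1b fell from E8.5 to E9.5 in EC (-0.95 ± 0.34 (SE), edgeR adjusted p = 0.049), and Chaf1a rose from E10.5 HE to pre-HSC I (1.09 ± 0.31 (SE), edgeR adjusted p = 0.03). Each of these calls was kept in 1 of 6 runs with 1 library left out.

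Of the regulators of the G1 to S passage, only Ccne2 passed the threshold in any of the 14 main comparisons, and Ccne1 did in an added one. Ccne2, a cyclin E (mm9 chr4:11118498-11131926, plus strand), stood in EC at 96.2, 85.01 and 109 CPM at E8.5, 46.1, 53.8 and 31.6 at E9.5 and 48.8, 45.98 and 36.6 at E10.5. In HE, Ccne2 stood at 67.7, 38.8, 62.8 and 65.9 CPM at E8.5, 38.5, 57.3 and 32.8 at E9.5 and 38.7, 27.8 and 13.2 at E10.5. Ccne2 in the blood populations was at 36.4, 71.6 and 41.3 CPM for pro-HSC/HPC, 50.5, 34.3 and 34.1 for pre-HSC I and 55.7, 26.6 and 23.1 for pre-HSC II. It fell from E8.5 to E9.5 in EC (-1.14 ± 0.36 (SE), edgeR adjusted p = 0.027), and all E8.5 EC libraries lay above all others. The other cyclin E, Ccne1 (mm9 chr7:38883003-38892509, minus strand) stood in EC at 18.8, 23.6 and 3.95 CPM at E8.5, 18.2, 21.3 and 11.7 at E9.5 and 9.20, 18.1 and 13.5 at E10.5. In HE, Ccne1 stood at 12.5, 23.9, 12.2 and 8.64 CPM at E8.5, 19.6, 12.5 and 12.99 at E9.5 and 8.97, 7.03 and 5.40 at E10.5. Ccne1 in the blood populations was at 19.4, 14.1 and 26.6 CPM for pro-HSC/HPC, 9.59, 27.2 and 25.3 for pre-HSC I and 20.1, 18.7 and 22.9 for pre-HSC II. Replicate 3 of E8.5 EC was far below the other 2 libraries, and the E10.5 HE libraries were below all libraries of E10.5 EC and of pre-HSC I. The difference of pre-HSC I against E10.5 HE did not pass the threshold (1.54 ± 0.49 (SE), edgeR adjusted p = 0.06), with a 95% interval of 0.52 to 2.55, and that of pre-HSC II did (1.53 ± 0.49 (SE), edgeR adjusted p = 0.027). E2f1, a transcription factor of this step (mm9 chr2:154385136-154395628, minus strand), stood in EC at 6.65, 6.44 and 7.84 CPM at E8.5, 9.40, 5.87 and 12.2 at E9.5 and 8.47, 6.99 and 8.59 at E10.5. In HE, E2f1 stood at 3.61, 10.3, 8.22 and 4.30 CPM at E8.5, 7.75, 7.68 and 10.55 at E9.5 and 8.39, 3.19 and 2.81 at E10.5. E2f1 in the blood populations was at 6.70, 8.88 and 9.43 CPM for pro-HSC/HPC, 8.18, 10.2 and 12.7 for pre-HSC I and 14.1, 8.09 and 11.3 for pre-HSC II. Replicates 2 and 3 of E10.5 HE were the lowest of all 28 libraries, but replicate 1 was not low, and E2f1 passed the threshold in none of the 14 main comparisons.

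The first set of comparisons set EC, and then HE, of each day against the day before. Populations of the same label differed in Runx1 or Cdh5 between E8.5 and E9.5. Runx1 was at 1.03 to 3.46 CPM in the E8.5 HE libraries and 30.8 to 37.4 in those of E9.5 HE. In E8.5 EC it was at 1.25 to 5.14 CPM, so Runx1 did not set E8.5 HE apart from EC. Cdh5 was at 91.4 to 129 CPM in E8.5 EC and 383 to 652 in E9.5 EC. The comparisons of E9.5 with E8.5 are therefore between populations unlike in these genes. Whether populations of the same label form a line of descent was not tested. From E8.5 to E9.5, 18 of 43 members fell in EC, against 9.56% of all genes tested, and 1 rose (Pola1), against 10.1% of all genes. The median log2 difference of the members was -0.68, and that of all genes tested 0.05. The 12 with the smallest p were Mcm5, Fen1, Mcm7, Slbp, Pold2, Mcm2, Gins2, Cdc6, Pcna, Rfc2, Mcm10 and Ccne2. Libraries did not overlap for 25 members that were lower at E9.5, against 17.5% of all genes. Without TMM factors 10 members fell and 1 rose. With 1 library left out the count of calls was 10 without E8.5 EC replicate 1, 12 without E8.5 EC replicate 3, 8 without E9.5 EC replicate 1 and 6 without E9.5 EC replicate 3. The mesenchyme markers summed to 410 CPM in E9.5 EC replicate 3 and to 68.7 and 93.1 in the other 2 libraries. Without replicate 3 only 6 of the 19 calls were kept, those for Mcm2, Mcm5, Mcm7, Pold2, Fen1 and Slbp. The part of these markers in the fall in EC was not tested. In HE, 12 members fell from E8.5 to E9.5, against 3.58% of all genes, and none rose: Slbp, Fen1, Mcm5, Mcm7, Gins2, Cdc6, Rfc2, Mcm3, Pold2, Mcm2, Mcm4 and Mcm10. The median was -0.56 for the members and 0.02 for all genes. This count was 5 without E8.5 HE replicate 1, 5 without E9.5 HE replicate 1 and 2 (Fen1 and Slbp) without E9.5 HE replicate 3. The mesenchyme markers summed to 34.6 to 76.4 CPM in the E8.5 HE libraries and to 305 to 458 in those of E9.5, and their part in this fall was not tested. The same 11 genes fell in both lineages, which is 61.1% of the EC list and 91.7% of the HE list, and over all genes tested 455 fell in both, 31.2% of the EC list and 83.5% of the HE list.

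From E9.5 to E10.5 no member passed the threshold in EC (edgeR quasi-likelihood test, 0.761% of all genes called, 0 members at an unadjusted p under 0.05, 0 by DESeq2). In HE no member passed either (3.64% of all genes called), although 10 had an unadjusted p under 0.05, all lower, against 9.45% of all genes, and DESeq2 called 1. The median log2 difference was -0.03 in EC and -0.43 in HE. Over the whole span from E8.5 to E10.5, a comparison added after the levels were seen, 27 of 43 members fell in HE, against 8.57% of all genes lower, with a median of -0.92. The 12 smallest p belonged to Mcm5, Mcm3, Mcm2, Cdc6, Gins2, Fen1, Pcna, Pold1, Mcm7, Orc1, Mcm10 and Rrm2. The count was 15 without E10.5 HE replicate 2 and 17 without E10.5 HE replicate 3.

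The second set compared HE with EC of the same day. At E8.5 no member passed the threshold (6.81% of all genes called by edgeR), 9 had an unadjusted p under 0.05, all lower in HE, against 9.13% of all genes, and DESeq2 called 2. Same-numbered libraries deviated together on that day. With the replicate number as a block across all days the count stayed 0, and with the block within each day it was 11, all lower in HE. Without E8.5 HE replicate 1 the count was 6, and without E8.5 HE replicate 2 it was 1. At E9.5 no member passed (0.302% of all genes called by edgeR), 1 had an unadjusted p under 0.05, lower in HE, against 2.42% of all genes, and DESeq2 called 0. Signs leaned toward lower in HE on both days. At E9.5 only 2 of the 3 single-strand binding genes were positive and all other members negative, against 51.3% of all genes negative. At E8.5 negative signs outnumbered positive ones in every role but Okazaki fragment joining (1 of each), against 49.1% of all genes negative. Median log2 differences by role ran from -0.38 to -0.11 at E8.5 and from -0.40 to 0.06 at E9.5. At E10.5, 5 of 43 were lower in HE, against 1.37% of all genes: Orc1, Mcm10, Mcm5, Mcm3 and Mcm4. The sign was negative for 42 of 43, against 50.3% of all genes, the median log2 difference was -0.59 against 0.00 for all genes, and 19 members had no overlap of libraries, against 8.96% of all genes. These calls were sensitive to single libraries: the count was 2, 0 and 2 without E10.5 EC replicates 1, 2 and 3, and 3, 2 and 0 without E10.5 HE replicates 1, 2 and 3. With the replicate number as a block the count was higher, by the values in the last paragraph. The mesenchyme markers summed to 812, 216 and 400 CPM in the 3 E10.5 HE libraries and to 20.2, 259 and 28.2 in the 3 EC libraries, so they were higher in HE in part, and their part in this difference was not tested. For a change of the HE against EC difference itself, no member passed the threshold between E8.5 and E10.5 (edgeR, 2.99% of all genes called, 4 members lower at an unadjusted p under 0.05 against 8.67% of all genes, 0 by DESeq2). Between E8.5 and E9.5 none passed either (0.847% of all genes, 0 members at an unadjusted p under 0.05, 0 by DESeq2).

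The third set compared blood populations with HE of the same day. At E9.5 no member passed the threshold between pro-HSC/HPC and HE (edgeR, 0.656% of all genes called, 0 members at an unadjusted p under 0.05, 0 by DESeq2), and the median log2 difference was 0.19. The 7 endothelial markers still summed to 2135 to 2465 CPM in pro-HSC/HPC, against 2822 to 3350 in E9.5 HE. Their part in the absence of calls was not tested. At E10.5, 13 of 43 were higher in pre-HSC I than in HE, against 3.08% of all genes, and none was lower. The 12 with the smallest p were Mcm3, Mcm2, Mcm10, Rfc5, Pold1, Pola1, Mcm6, Pole, Rfc1, Mcm5, Chaf1a and Lig1, and the last was Pcna. All 43 differences were positive, against 50.7% of those of all genes, and the median was 0.68 against 0.01 for all genes. The count was 4 without E10.5 HE replicate 2, 4 without E10.5 HE replicate 3, 3 without pre-HSC I replicate 2 and 5 without pre-HSC I replicate 3. With the replicate block within each day it was higher, as the last paragraph gives. Markers of other cells moved with this step. Of 7 granulocyte and macrophage markers 5 were higher in pre-HSC I, with sums of 109.6 to 187 CPM against 4.37 to 13.5 in HE, and of 6 megakaryocyte and platelet markers 2 were higher (176 to 263 against 29.8 to 47.4). Of 7 endothelial markers 6 were lower (1011 to 1425 against 3404 to 3609). Erythroid markers (3 of 8 tested higher) summed to 23.6 to 1408 CPM against 10.7 to 21.7, and mesenchyme markers (none of 7 called) to 135 to 352 against 216 to 812. The part of these cells or transcripts in the difference was not tested. Between pre-HSC II and pre-HSC I no member passed (edgeR, 4.42% of all genes called, 1 member higher at an unadjusted p under 0.05 against 2.23% of all genes, 0 by DESeq2), and the median was 0.10. Against HE, a comparison added after the levels were seen, pre-HSC II was higher for 25 of 43 members, against 8.75% of all genes, and for 14 without E10.5 HE replicate 2. The granulocyte and macrophage markers summed there to 382 to 508 CPM, the megakaryocyte and platelet markers to 253 to 357 and the endothelial markers to 384 to 447, and their part was not tested. The 12 smallest p in it belonged to Mcm10, Mcm3, Mcm2, Pold1, Rfc5, Mcm5, Mcm7, Mcm6, Pola1, Rfc1, Pole and Lig1. Both comparisons share the E10.5 HE libraries with the comparison of HE with EC, so their values are not independent of it.

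Set against E10.5 EC, also an added comparison, pre-HSC I differed in 2 members, Orc1 lower and Rfc5 higher, against 7.27% of all genes called, and the median was 0.10. With the replicate block within each day it was 4. The count was 1 without E10.5 EC replicate 1, 0 without E10.5 EC replicate 2, and 0, 0 and 1 without pre-HSC I replicates 1, 2 and 3. Between pre-HSC I and the E9.5 pro-HSC/HPC no member passed the threshold (edgeR, 1.45% of all genes called, 3 members higher at an unadjusted p under 0.05 against 4.76% of all genes, 0 by DESeq2). The change of the step from HE to blood between the days, E10.5 against E9.5, passed for no member (edgeR, 0.0722% of all genes called, 10 members higher at E10.5 at an unadjusted p under 0.05 against 4.66% of all genes, 0 by DESeq2), with a median of 0.48. The 2 steps end in populations unlike in endothelial markers, which summed to 1011 to 1425 CPM in pre-HSC I and 2135 to 2465 in pro-HSC/HPC.

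**Figure D5:**
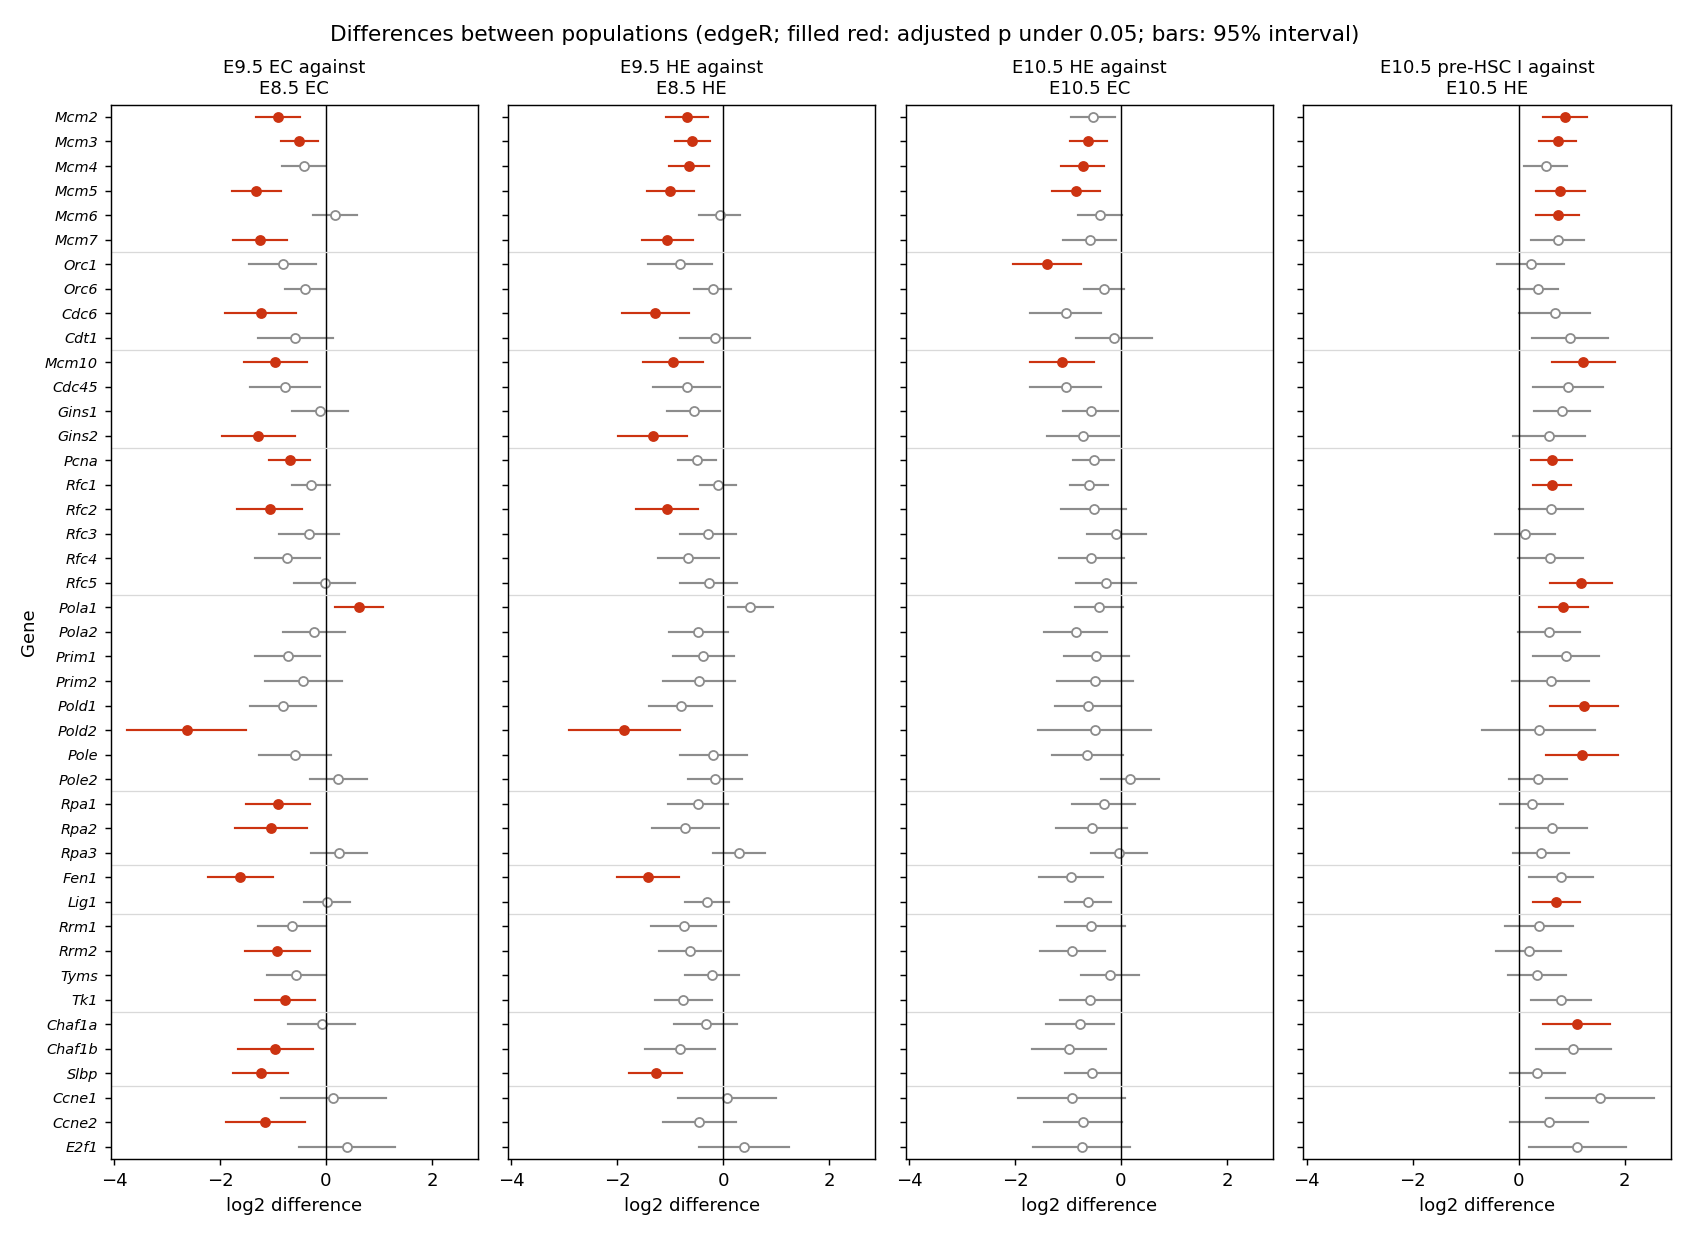
Log2 differences of the 43 genes (rows) in 4 comparisons between populations, with 95% intervals from the edgeR fit; filled red points passed an adjusted p of 0.05. In the first panels (E9.5 against E8.5) 18 genes in EC and 12 in HE lie to the left in red and Pola1 in EC to the right, 5 lie to the left for E10.5 HE against EC, and 13 lie to the right for pre-HSC I against HE.

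Other genes of replication passed the threshold at several of these steps. Of 66 such genes outside the 43, 17 were higher in pre-HSC I than in E10.5 HE, against 3.08% of all genes, and none was lower. The 4 with the smallest p were the nuclease Exo1, at 77.2 ± 6.33 against 30.2 ± 9.3 CPM, the chromatin remodeller Hells, at 152 ± 25.6 against 66.7 ± 17.3 CPM, the checkpoint mediator Clspn, at 66.7 ± 18.5 against 26.3 ± 7.17 CPM, and Uhrf1, which guides DNA methylation to new strands, at 294 ± 38.5 against 156 ± 46.6 CPM (SD, n = 3 each). In E10.5 HE against EC 5 of the 66 were lower, against 1.37% of all genes, Exo1, Hells, Clspn, Pold3 and E2f5, and none was higher. From E9.5 to E10.5 in HE, 7 of the 66 fell, against 2.15% of all genes, led by Hells, E2f5, Ccna2 and Dut. No member passed the threshold there, although most members were also lower by sign. From E8.5 to E9.5 in EC, 10 of the 66 fell, against 9.56% of all genes, and 7 rose, a share close to the 10.1% of all genes, and the smallest p belonged to Rnaseh2a, Pole3, Dtymk and Gins4, all lower. In HE 2 of the 66 fell, Rnaseh2a and Asf1b, a share below the 3.58% of all genes. At E8.5, Rbl1 and E2f2 were higher in HE than in EC, which is also a smaller share of the 66 than the 5.08% of all genes. The HE against EC difference was lower at E10.5 than at E8.5 for 2 of the 66, E2f5 and Dna2, a share near the 2.11% of all genes.

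Of 28 genes of mitosis, 6 fell from E8.5 to E9.5 in EC, against 9.56% of all genes, and 6 in HE, against 3.58%, with Plk1 and Cdc20, which drive mitosis and its exit, among the 3 smallest p in each. None of the 28 passed the threshold in E10.5 HE against EC, where 3.48% of all genes did (edgeR, either direction). None passed in pre-HSC I against HE either, where 6.88% of all genes did and the median log2 difference of the 28 was 0.07. At an unadjusted p under 0.05 there were 1 and 4 of the 28. Among 28 genes the called shares of 3.48% and 6.88% would give few calls, so the absence of calls does not set the mitosis genes apart from all genes. For pre-HSC II against HE, 2 of the 28 were higher, Aurkb and Ccnf, a share near the 8.75% of all genes. Of 10 D cyclin, Cdk and Cdk inhibitor genes that passed the filter, Ccnd1, which starts the G1 to S passage, was lower in E10.5 HE than in E10.5 EC, at 42.9 ± 15.7 against 128 ± 40.1 CPM, and lower in pro-HSC/HPC than in E9.5 HE, at 30.5 ± 5.6 against 164 ± 41.5 CPM (SD, n = 3 each). Cdkn1c, an inhibitor of cyclin-dependent kinases, was lower in pre-HSC II than in pre-HSC I, at 71.4 ± 16.3 against 277 ± 35.9 CPM (SD, n = 3 each), where no replication gene of the 43 passed the threshold. Among the other calls on this list, Ccnd2 (log2 difference -1.03, edgeR adjusted p = 0.0064) and Ccnd3 (log2 difference 0.92, edgeR adjusted p = 0.018) differed between HE and EC at E8.5, and Cdkn1c (log2 difference 1.35, edgeR adjusted p = 0.037) did at E9.5. From E8.5 to E9.5, Cdk4 (log2 difference -1.14, edgeR adjusted p = 7.0e-04) and Ccnd2 (log2 difference -1.07, edgeR adjusted p = 0.004) fell in EC, and Ccnd3 (log2 difference -1.44, edgeR adjusted p = 0.0013) and Cdk4 (log2 difference -0.84, edgeR adjusted p = 0.014) fell in HE. Ccnd1 fell from E9.5 to E10.5 in HE (log2 difference -1.93, edgeR adjusted p = 0.001). Cdk6 was higher in pre-HSC I than in HE, at 4.46 ± 0.954 against 0.538 ± 0.452 CPM (SD, n = 3 each).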

How the data were processed

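Gene counts of 28 libraries were taken as deposited. Per the submitters' processing notes TopHat, SAMtools, Subread and featureCounts 1.6.2 were used with the mm9 build, and the deposited table holds the authors' whole-number read counts per gene, with no normalization. From these, CPM values and tests were computed in R 4.3.3 with edgeR 4.0.16 and limma 3.58.1: genes were filtered with filterByExpr (minimum count 10), scaled by TMM, and fitted in 1 quasi-likelihood model with a coefficient for each of the 9 populations. P-values were adjusted by Benjamini-Hochberg over all 15238 genes, and a gene is called at an adjusted p under 0.05. Positions are those of the deposited table (mm9), and promoter sequences are RefSeq's on GRCm38.p6. Total counts of 16308918 to 31405603 per library set the counting precision, and no member was below 63 counts. The code was tested on simulated data.

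The members, gene lists and comparisons were chosen with earlier results of these data known. All members could be named. Values in every library are given for 14 of them chosen by role, and for each further member called in at least 2 of the 11 comparisons between populations. Called members are named in their comparison, or the 12 with the smallest p. Outside the members, at most 4 wider replication genes and 3 other cell cycle genes with the smallest p are named per main comparison, or all where 5 or fewer were called. The library values of Orc1 and Rfc5 were added after they were seen. Alternatives were DESeq2 1.42.0, its size factors, no filter, only the libraries compared, each library left out, and the replicate number as a block. The block within a day, total counts without TMM factors, and 3 comparisons (pre-HSC I with E10.5 EC, pre-HSC II with E10.5 HE, and E10.5 with E8.5 HE) were added after seeing the data. The main tests used no pairing. Same-numbered libraries were described as paired where every pair's deviations correlated above 0.1. This held for E8.5 HE with EC (0.174 to 0.215), E9.5 HE with EC (0.105 to 0.279), pro-HSC/HPC with HE (0.135 to 0.344) and pre-HSC I with E10.5 EC (0.137 to 0.406), from the data and not from the labels. The limit is rough. For E10.5 HE with EC (0.0824 to 0.264) each library matched its own number best, but the limit left this comparison out. For pre-HSC I with E10.5 EC replicate 3 did not match its own number best.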

Additional observations from a re-analysis of the deposited data

How the results depend on the processing

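Counts of members called are given for each alternative that moved them by more than 1.5 times. By the DESeq2 test the count was 2 for E8.5 HE against EC, 10 for E10.5 HE against EC, 20 for pre-HSC I against HE and 1 for E10.5 against E9.5 HE. Without TMM factors it was 9 for E10.5 HE against EC, 20 for pre-HSC I against HE, 11 for E9.5 against E8.5 EC, 1 for pre-HSC I against pro-HSC/HPC, 1 for the change of the HE to EC difference from E8.5 to E10.5, and 1 for pre-HSC I against E10.5 EC. Without a filter it was 3 for E10.5 HE against EC and 1 for pre-HSC I against EC, where DESeq2 size factors also gave 1. With only the libraries compared it was 1 for E10.5 HE against EC, 6 for pre-HSC I against HE, 5 for E9.5 against E8.5 HE and 0 for pre-HSC I against EC. The cause of these moves was not tested. With 1 library left out the counts ranged from 0 to 6 for E8.5 HE against EC, 0 to 3 for E10.5 HE against EC, 3 to 17 for pre-HSC I against HE, 6 to 19 for E9.5 against E8.5 EC, 2 to 12 for E9.5 against E8.5 HE, 0 to 2 for pre-HSC I against EC, 14 to 27 for pre-HSC II against HE and 15 to 28 for E10.5 against E8.5 HE. Of 103 calls of single members 38 were kept with every library left out in turn, and no difference changed sign in any of the 1320 reruns of these calls. For pre-HSC I against HE, the calls of Mcm5, Pcna and Lig1 were kept in 1 of 6 such runs and that of Pole in 2 of 6. Those of Mcm5 and Mcm10 for E10.5 HE against EC were kept in 2 of 6. So were those of Mcm10, Rpa2, Rrm2 and Ccne2 for E9.5 against E8.5 EC.

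With the replicate number as a block across days the count was 10 for E10.5 HE against EC and 1 for E10.5 against E9.5 HE. With the block within each day it was 11 for E8.5 HE against EC, 23 for E10.5 HE against EC, 31 for pre-HSC I against HE and 4 for pre-HSC I against E10.5 EC. By the limit of 0.1 pairing by number held in 4 of 14 comparisons, and the correlations over all of them ran from -0.165 to 0.406. Every library matched its own number best in 5 of the 14. With 3 or 4 libraries a group, a difference that misses the threshold may still exist.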
